A study of Gossypium hirsutum with 18 samples.

Results

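The report covers 52 genes of cotton (Gossypium hirsutum) roots that were higher after root-knot nematode infestation in a susceptible genotype and lower after it in a resistant genotype. They were chosen by measured values. For each genotype the response was taken as the log2 of the mean infested value plus 0.5 minus the log2 of the mean control value plus 0.5. A member had a response of at least 1 in SJ2 and of -1 or less in NemX, no overlap between infested and control libraries in either genotype, and a mean of at least 2 over all 18 libraries. Of the 54508 genes in the table, 40870 had such a mean, and the 52 members were 0.127% of these. The SJ2 condition alone was met by 3883 genes and the NemX condition alone by 714. The mirrored rule, with a fall in SJ2 and a rise in NemX, was met by 19 genes.

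The libraries came from roots of 23-day-old plants of Wild Mexico Jack Jones (WMJJ, moderately resistant), Acala NemX (NemX, resistant) and Acala SJ-2 (SJ2, susceptible). In the infested groups (rkn) seedlings 12 days old had received 5000 juveniles (J2) of Meloidogyne incognita per plant, and the control groups (ctl) were not infested. The 6 groups are named WMJJ_rkn, WMJJ_ctl, NemX_rkn, NemX_ctl, SJ2_rkn and SJ2_ctl, with 3 biological replicate libraries each. A difference between genotypes is one between whole lines and cannot be assigned to 1 gene. The table holds values that the authors normalized, on a scale near CPM (read counts scaled to a common library total), with 1 row per gene. They are not per length, so levels are compared between groups and never between genes. The column totals ran from 852215 to 901899 in SJ2_ctl, the lowest. They ran from 1048424 to 1096547 in NemX_ctl, the group with the highest median, and reached 1049994 in NemX_rkn. The table gives no read depth. In the library list of the methods, replicate 3 had the most reads of its group in every group except NemX_rkn, where replicate 1 had them. WMJJ_ctl replicate 1 had the lowest share of assigned reads in that list. Between 51290 and 53850 genes were above 0 in a library, and libraries of 1 group correlated with r from 0.946 to 0.968.

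Root-knot nematodes are sedentary parasites. Their juveniles enter the root, migrate to the vascular cylinder and turn a few cells into giant cells, the feeding sites, around which the root swells to a gall. Plants answer such attack with defense programs in which the hormones jasmonic acid and salicylic acid act as signals. Of the members, 2 carry a homolog name in the study. Gohir.A10G054600 is a homolog of Arabidopsis LOX3, a lipoxygenase at an early step of jasmonic acid synthesis, and Gohir.A11G014000 is a homolog of Arabidopsis WRKY53, a transcription factor of defense and leaf senescence. The other members are given by identifier alone, since none was paired with a name in the sources used here, and root marker genes were not checked for the same reason. The 2 TIR-NBS-LRR genes that the study names, Gohir.A11G297600 and Gohir.D11G312800, are not members. Cotton is an allotetraploid with an A and a D subgenome, and the letter and number in each identifier give the chromosome.

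The responses that chose the members are given as a description. In SJ2 the response ran from 1.04 to 4.86 on the log2 scale, with a median of 1.66. In NemX it ran from -2.13 to -1.01, with a median of -1.26, so the values lay closer to the limit in NemX than in SJ2. Just inside the limits were Gohir.D02G189500 (1.68 in SJ2, -1.01 in NemX), Gohir.A01G037000 (1.41 and -1.01) and Gohir.D06G006100 (2.56 and -1.03). Just outside were Gohir.D08G049600 (2.77 in SJ2, -0.996 in NemX), Gohir.D08G097300 (2.87 and -0.987) and Gohir.D10G204200 (0.983 and -1.28). In the limma fit over all 46813 tested genes, a gene was called at a Benjamini-Hochberg adjusted p below 0.01 and a log2 fold change beyond 1. By that call, 50 of the 52 members were higher in SJ2_rkn than in SJ2_ctl (8.09% of all tested genes) and 19 were lower in NemX_rkn than in NemX_ctl (0.666% of all tested genes). The rule used both contrasts, and nothing is read from these counts. All 52 members passed the filter on low values.

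The same choice was repeated without 1 replicate number in SJ2 and NemX at a time, and the libraries left out were then looked at. Without replicate 1, the rule gave 101 genes, and in 68 of them (67.3%) the left-out libraries were higher in SJ2_rkn and lower in NemX_rkn, against 20.7% of all genes. Without replicate 2 it gave 110 genes, with both directions in 78 (70.9%, against 21.0%), and without replicate 3 it gave 83 genes, with both directions in 64 (77.1%, against 22.8%). Of these genes, 40, 45 and 32 were among the 52 members. The SJ2 direction was kept in 97, 89 and 81 of the chosen genes and the NemX direction in 70, 98 and 64. In NemX the left-out libraries had median log2 differences of -0.71, -0.91 and -0.65, short of the limit of -1. Genes chosen on fewer libraries therefore kept both directions in most cases, but not in all, in libraries that the choice had not used. For replicates 1 and 3, the left-out NemX pair set the library with the most reads of its group against one that was not. What this did to the NemX counts was not tested.

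Among the 6 groups, uninfested SJ2 roots were most often lowest and uninfested NemX roots most often highest. By the rule SJ2_ctl and NemX_rkn could not be highest, and NemX_ctl and SJ2_rkn could not be lowest. The order is therefore a description. SJ2_ctl had the lowest group mean in 47 of the 52 members. The highest mean was in NemX_ctl for 36 members, in WMJJ_ctl for 8, in SJ2_rkn for 5 and in WMJJ_rkn for 3. The median group mean over the members was 12.0 in NemX_rkn, 28.9 in NemX_ctl, 9.59 in SJ2_rkn and 2.37 in SJ2_ctl. In WMJJ it was 11.6 in WMJJ_rkn and 18.9 in WMJJ_ctl. As bulk values, these levels cannot tell fewer cells of a type from less RNA per cell.

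**Figure D1:**
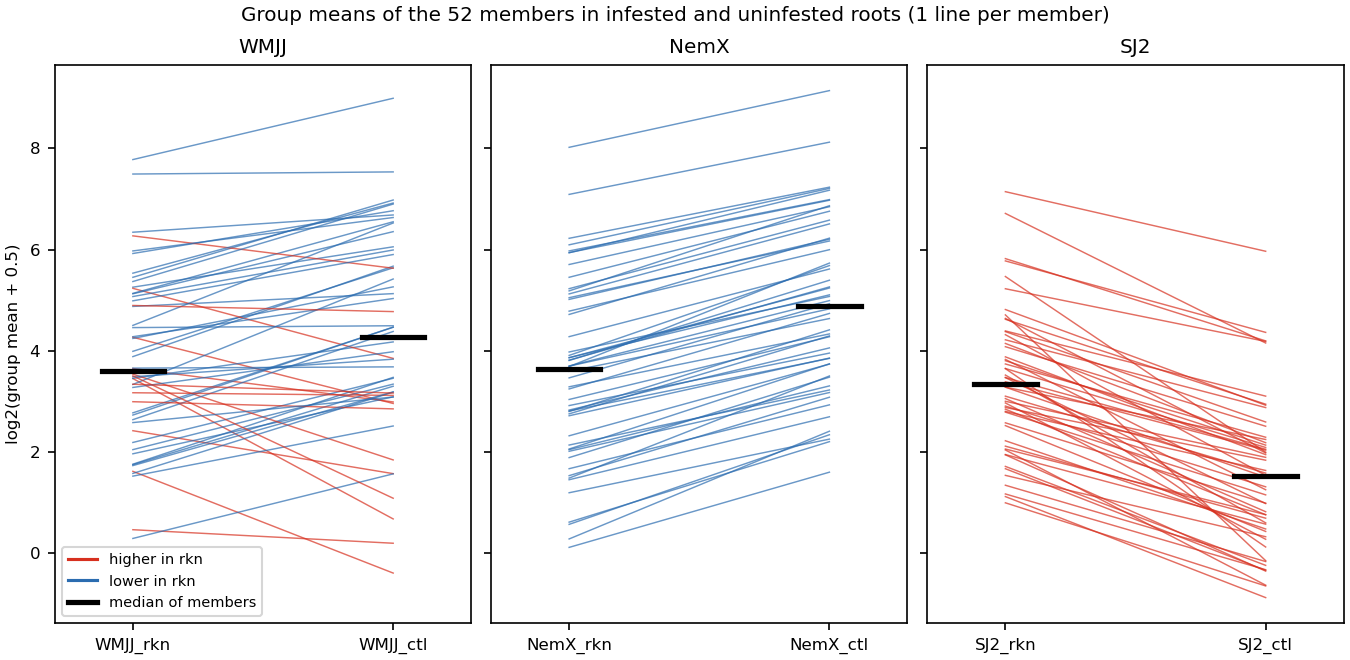
Group means of the 52 members on a log2(mean + 0.5) scale, with infested roots (rkn) left of control roots (ctl) in WMJJ, NemX and SJ2. Each line is 1 member, red where rkn was higher and blue where it was lower, and black bars are medians over the members. All lines are blue in NemX and red in SJ2 because of the rule. WMJJ holds both, with 38 members lower and 14 higher in WMJJ_rkn by their group means.

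In uninfested control roots nearly all members were higher in NemX than in SJ2. Every NemX_ctl library was above every SJ2_ctl library in 51 members (20.9% of genes with a mean of at least 2), and 48 members were called higher in NemX_ctl than in SJ2_ctl (9.37% of all tested genes). The median of their log2 fold changes, over all 52 members, was 3.46. The exceptions to the call were Gohir.A02G017400, Gohir.D11G304400, Gohir.D04G184400 and Gohir.A11G269100. Every NemX_ctl library was also above every SJ2_rkn library in 43 members (22.9% of genes with a mean of at least 2). The rule used these libraries: a gene that is low in SJ2_ctl or high in NemX_ctl meets it more easily, so these counts are a description without a test.

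By the rule the log2 difference of NemX from SJ2 had to be smaller in infested than in control roots, by at least 2. The NemX_rkn mean was above the SJ2_rkn mean in 32 members and below it in the others, and the log2 fold changes had a median of 0.38. By the call, 8 members were higher in NemX_rkn than in SJ2_rkn (2.88% of all tested genes) and 4 were lower (1.81%). The largest such difference upward was in Gohir.D02G210000 (log2 fold change 2.01) and the largest downward in Gohir.A11G269100 (log2 fold change -2.49). Although NemX_rkn was below NemX_ctl in all members by the rule, its mean was above the SJ2_ctl mean in 49 of them. Every NemX_rkn library was above every SJ2_ctl library in 45 (22.1% of genes with a mean of at least 2).

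In uninfested roots, most members had higher values in WMJJ than in SJ2, and more of them had lower than higher values in WMJJ than in NemX. In WMJJ_ctl against SJ2_ctl, 46 members were called higher (7.76% of all tested genes) and 2 were called lower (5.82%). The log2 fold changes had a median of 3.07. Every WMJJ_ctl library was above every SJ2_ctl library in 47 members (20.9% of genes with a mean of at least 2). Against NemX_ctl, the log2 fold changes of WMJJ_ctl had a median of -0.36, and 6 members were called lower in WMJJ_ctl (3.74% of all tested genes). Every WMJJ_ctl library was below every NemX_ctl library in 28 members (18.8% of genes with a mean of at least 2) and above in 2 (12.9%). These 6 were Gohir.D05G376600, Gohir.A08G108900, Gohir.A12G122200, Gohir.D11G304400, Gohir.A13G187900 and Gohir.D07G183000. The SJ2 and NemX libraries in both comparisons had served the rule, and the counts are a description.

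Gohir.D05G376600 stood apart among them, since it was near 0 in WMJJ under both treatments. Its values were 0.881, 0.452 and 1.3 in WMJJ_rkn, against 0.693, 1.08 and 0.155 in WMJJ_ctl. In NemX they were 11.8, 16.9 and 13.5 in NemX_rkn, against 41.5, 36.03 and 24.3 in NemX_ctl. No WMJJ library reached any library of SJ2 or NemX, where the lowest value was 2.02 in SJ2_ctl. This member was named after its values were seen.

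The response of WMJJ took no part in the choice except through the mean over all libraries. Of the members, 2 reached the required mean of 2 only with the WMJJ libraries, Gohir.A05G162800 (1.18 over the 12 SJ2 and NemX libraries) and Gohir.D04G103200 (1.81). Most members had lower values in WMJJ_rkn than in WMJJ_ctl, the direction of NemX, and a few had higher values, the direction of SJ2. In WMJJ_rkn against WMJJ_ctl, 18 of the 52 members (34.6%) were called lower, against 4.84% of all tested genes. Called higher were 4 members (7.69%), against 5.6% of all tested genes. The median log2 fold change of the members was -0.85, beside -0.00 for all tested genes. The log2 fold change was below 0 in 39 members and above 0 in 13. By group means the counts were 38 and 14, since the fit averages log2 values. Without the 2 members that needed the WMJJ libraries for their mean, 18 were called lower and 3 higher. The spread behind these calls was taken over all 6 groups. It thus included the SJ2 and NemX libraries, whose lack of overlap, required by the rule, is met more easily where the spread is small. With the 6 WMJJ libraries alone in the fit, 14 members were called lower and 3 higher. Of the 46813 tested genes, 1505 were then called lower and 1868 higher.

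The plot of the 3 responses orders the members by their WMJJ value and shows a continuous range rather than separate groups. Every WMJJ_rkn library was below every WMJJ_ctl library in 31 members (59.6%), against 18.3% of genes with a mean of at least 2. Every WMJJ_rkn library was above every WMJJ_ctl library in 6 members (11.5%), against 20.1%, and in 15 members the libraries overlapped. Without 1 WMJJ library at a time, between 11 and 17 members were called lower, with 11 when WMJJ_rkn replicate 1 was left out, and between 2 and 4 were called higher, with 2 when WMJJ_rkn replicate 3 was left out. Of the 46813 tested genes, between 1742 and 2235 were then called lower (2264 with all libraries). Between 2101 and 2539 of them were called higher (2623 with all libraries). Without WMJJ_ctl replicate 1, which had the lowest share of assigned reads, 12 members were called lower (1742 of the tested genes). Without WMJJ_ctl replicate 3 the count was 12 as well (2072 of the tested genes).

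**Figure D2:**
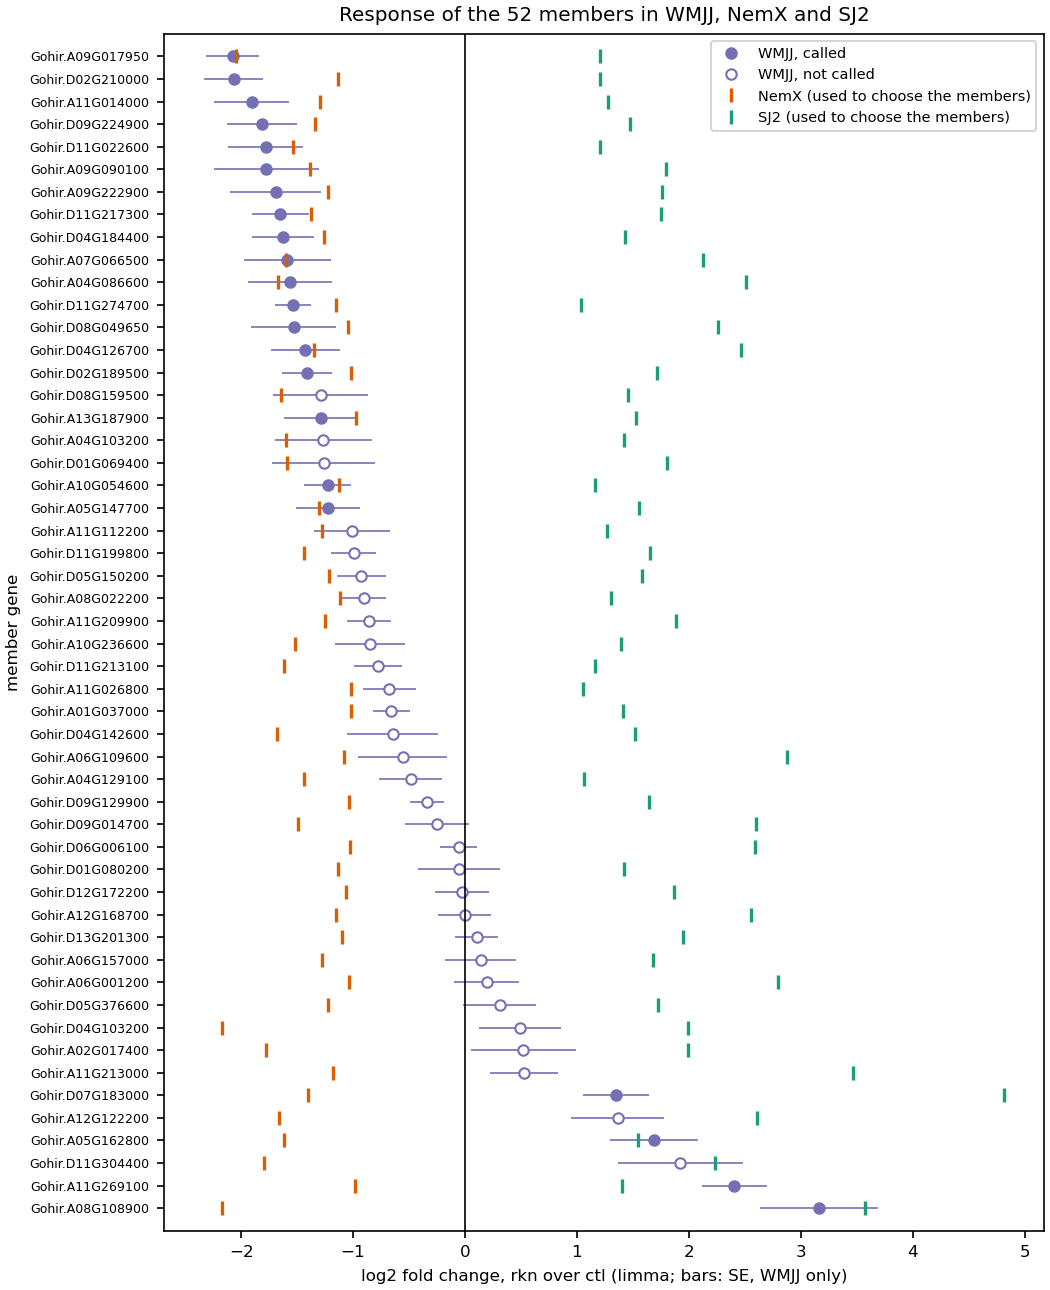
Log2 fold changes of rkn over ctl for the 52 members, ordered by the WMJJ value. Circles are WMJJ with the SE of the limma fit (filled where called), and the orange and green ticks are NemX and SJ2, whose sides were fixed by the choice of members. WMJJ ran from -2.08 to 3.16, with 18 filled circles on the left and 4 on the right.

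For comparison, the genes that met only 1 part of the rule were set beside the members. Of the 3831 other genes rising in SJ2, 37.0% were called higher in WMJJ and 2.01% lower, and the median was 0.81 on the log2 scale. Of the 662 other genes falling in NemX, 63.7% were called lower in WMJJ and 3 genes were called higher, and the median was -1.58 on the log2 scale. The members, with 34.6% lower and 7.69% higher, lay between these classes and nearer to the genes falling in NemX. The difference between the classes was not tested.

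**Figure D3:**
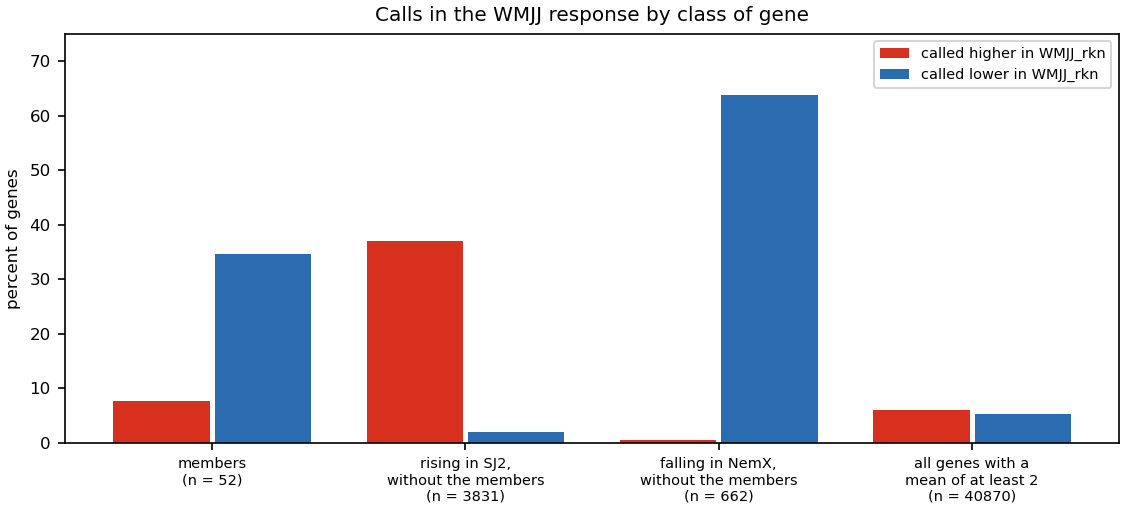
Percent of genes called higher (red) or lower (blue) in WMJJ_rkn against WMJJ_ctl, for the members, the other genes that met the SJ2 or the NemX condition, and all genes with a mean of at least 2. The members had 34.6% lower and 7.69% higher, the other SJ2-rising genes 2.01% lower and 37.0% higher, and the other NemX-falling genes 63.7% lower.

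Gohir.A10G054600, a LOX3 homolog of jasmonic acid synthesis, fell in WMJJ. It is 1 of several LOX3 orthologs in the study and does not stand for the pathway. The study describes its genes of jasmonic acid synthesis together as rising after infestation in SJ2 and WMJJ, with a slight fall in NemX. The values of Gohir.A10G054600 follow. It had 205, 268 and 185 in WMJJ_rkn, against 561, 508 and 457 in WMJJ_ctl. The NemX values were 285, 253 and 239.8 in NemX_rkn, against 536, 546 and 614 in NemX_ctl. The SJ2 values were 138, 98.8 and 186 in SJ2_rkn, against 65.5, 75.6 and 44.99 in SJ2_ctl. The groups did not overlap in any genotype, and all SJ2 libraries were below all WMJJ_ctl and NemX_ctl libraries. Its fall in WMJJ had a log2 fold change -1.23, SE 0.21, adjusted p = 1.97e-04 (limma). As the rule required, its response was 1.18 in SJ2 and -1.12 in NemX.

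Gohir.A11G014000, a WRKY53 homolog, had a deeper fall in WMJJ. Its values were 3.13, 10.7 and 4.55 in WMJJ_rkn, against 22.2, 22.5 and 20.1 in WMJJ_ctl (log2 fold change -1.90, SE 0.34, adjusted p = 2.63e-04, limma). In NemX it showed 13.4, 13.7 and 10.4 in NemX_rkn, against 33.98, 32.2 and 27.7 in NemX_ctl. In SJ2 it showed 7.8, 6.003 and 17.95 in SJ2_rkn, against 4.02, 3.72 and 3.2 in SJ2_ctl. SJ2_rkn replicate 3 was well above the other infested SJ2 libraries. With the 6 WMJJ libraries alone in the fit, the WMJJ call was lost (adjusted p = 0.0108, the highest of a range from 1.03e-05 over the 17 settings).

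The other members with the deepest falls in WMJJ are given next. Gohir.A09G017950 had 9.83, 9.05 and 9.87 in WMJJ_rkn, against 49.5, 37.8 and 39.4 in WMJJ_ctl (log2 fold change -2.08, SE 0.24, adjusted p = 1.91e-06, limma). NemX roots had 12.7, 11.5 and 12.9 in NemX_rkn, against 58.7, 52.2 and 47.2 in NemX_ctl. SJ2 roots had 7.17, 6.17 and 9.18 in SJ2_rkn, against 2.06, 5.38 and 2.21 in SJ2_ctl. The infested libraries of the 3 genotypes lay together at low values, with the uninfested WMJJ and NemX libraries far above them.

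Gohir.D02G210000 had 19.1, 30.01 and 17.3 in WMJJ_rkn, against 89.5, 95.4 and 90.1 in WMJJ_ctl (log2 fold change -2.07, SE 0.26, adjusted p = 6.76e-06, limma). Its NemX values were 72.9, 53.9 and 76.7 in NemX_rkn, against 147, 151 and 145 in NemX_ctl, so the infested NemX libraries stayed above every infested WMJJ library. Its SJ2 values were 12.6, 11.2 and 30.4 in SJ2_rkn, against 6.11, 6.43 and 7.98 in SJ2_ctl. Here too SJ2_rkn replicate 3 was the highest infested SJ2 library. Gohir.D09G224900 averaged 14.3 ± 3.77 in WMJJ_rkn and 50.5 ± 6.08 in WMJJ_ctl (SD, n = 3 each), with no overlap (log2 fold change -1.81, SE 0.31, adjusted p = 2.16e-04, limma). Gohir.D11G022600 averaged 5.72 ± 1.77 in WMJJ_rkn and 20.3 ± 2.59 in WMJJ_ctl (log2 fold change -1.78, SE 0.34, adjusted p = 5.31e-04, limma). In NemX_ctl they averaged 48.5 ± 5.74 for Gohir.D09G224900 and 26.2 ± 4.14 for Gohir.D11G022600, and neither was called between WMJJ_ctl and NemX_ctl.

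Among the called members, Gohir.A09G090100 was the least firm of the 6 with the largest falls. It averaged 2.88 ± 1.31 in WMJJ_rkn and 10.6 ± 1.81 in WMJJ_ctl (log2 fold change -1.77, SE 0.47, adjusted p = 0.00866, limma), and its call was lost in 8 of 16 other settings, 5 of them without 1 WMJJ library. Gohir.A04G086600 averaged 43.3 ± 16.1 in WMJJ_rkn and 126 ± 27.9 in WMJJ_ctl (log2 fold change -1.57, SE 0.37, adjusted p = 0.00406, limma). Gohir.A07G066500 averaged 2.86 ± 1.33 in WMJJ_rkn and 9.33 ± 2.99 in WMJJ_ctl (log2 fold change -1.59, SE 0.39, adjusted p = 0.00459, limma). Without 1 WMJJ library at a time, the calls of both were lost in some cases, and over all settings the adjusted p ran from 5.01e-06 to 0.0277 for Gohir.A04G086600 and from 0.00257 to 0.0394 for Gohir.A07G066500. Gohir.D02G189500, the member nearest to the NemX limit, averaged 45.8 ± 10.6 in WMJJ_rkn and 121 ± 10.1 in WMJJ_ctl (log2 fold change -1.41, SE 0.22, adjusted p = 7.28e-05, limma), and its call held in all 17 other settings. The 8 remaining members called lower in WMJJ had log2 fold changes from -1.69 to -1.22, with adjusted p in the limma fit from 4.86e-07 to 0.0067.

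Over the 18 members called lower in WMJJ, the WMJJ response ran from -2.08 to -1.22 on the log2 scale. In WMJJ_ctl against SJ2_ctl the same members had log2 fold changes from 1.22 to 5.47, with a median of 3.64. These comparisons share the WMJJ_ctl libraries, so a high WMJJ_ctl value enters both. For the 4 members called higher in WMJJ, the difference of WMJJ_ctl from SJ2_ctl ran from -1.20 to 4.04 on the log2 scale, with a median of 1.35.

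The 4 members called higher in WMJJ had the direction of SJ2. Their share (7.69% of the members) was near that of all tested genes (5.6%), so the count is not read as a trait of the members. Gohir.A08G108900 had 12.4, 6.19 and 12.7 in WMJJ_rkn, against 0, 2.83 and 0.459 in WMJJ_ctl (log2 fold change 3.16, SE 0.53, adjusted p = 1.42e-04, limma). In NemX roots it reached 3.55, 0.76 and 2.57 in NemX_rkn, against 9.46, 10.6 and 12.4 in NemX_ctl. In SJ2 roots it reached 8.91, 11.2 and 15.9 in SJ2_rkn, against 0.204, 1.11 and 0.448 in SJ2_ctl. Infested WMJJ and SJ2 and uninfested NemX reached similar values, and the other groups stayed below them. The call was lost with the 6 WMJJ libraries alone in the fit (adjusted p = 0.0133, the highest of a range from 6.54e-06 over the 17 settings).

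Gohir.A11G269100 had 10.8, 13.1 and 8.56 in WMJJ_rkn, against 1.62, 1.86 and 1.37 in WMJJ_ctl (log2 fold change 2.41, SE 0.29, adjusted p = 3.75e-06, limma). Values in NemX were 1.8, 1.78 and 1.78 in NemX_rkn, against 4.83, 2.33 and 5.64 in NemX_ctl. Values in SJ2 were 11.3, 18.2 and 9.03 in SJ2_rkn, against 5.33, 3.88 and 3.95 in SJ2_ctl. It was the exception to the higher NemX_ctl libraries, with control means of 4.27 ± 1.73 in NemX_ctl and 4.39 ± 0.815 in SJ2_ctl and overlapped. Its WMJJ call held in all 17 other settings.

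Gohir.D07G183000 had the largest response of any member in SJ2, at 4.86. Its values were 36.1, 26.8 and 48.5 in WMJJ_rkn, against 14.9, 14.6 and 12.2 in WMJJ_ctl (log2 fold change 1.35, SE 0.29, adjusted p = 0.00192, limma). NemX libraries showed 13.1, 18.2 and 10.8 in NemX_rkn, against 42.6, 31.3 and 38.1 in NemX_ctl. SJ2 libraries showed 29.1, 13.9 and 34.01 in SJ2_rkn, against 0.207, 0.749 and 0.247 in SJ2_ctl. Uninfested SJ2 roots were near 0 while every other group was well above it. Without WMJJ_rkn replicate 3 the WMJJ call was lost at adjusted p = 0.0154, and without WMJJ_ctl replicate 3 at adjusted p = 0.0101, while over all 17 settings the adjusted p ran from 0.00107 to 0.037, the highest when the library with the most reads in each group was left out.

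Gohir.A05G162800 averaged 11.1 ± 2.08 in WMJJ_rkn and 3.08 ± 0.47 in WMJJ_ctl (log2 fold change 1.69, SE 0.39, adjusted p = 0.00305, limma). In NemX it averaged 0.581 ± 0.503 in NemX_rkn and 2.53 ± 0.502 in NemX_ctl (SD, n = 3 each). In SJ2 it averaged 1.49 ± 1.04 in SJ2_rkn and 0.137 ± 0.122 in SJ2_ctl. It reached the mean that the rule asked for only through WMJJ. Its values outside WMJJ were low throughout, with 1 NemX_rkn library and 1 SJ2_ctl library at 0, and its WMJJ call was lost in 6 of 16 other settings, with adjusted p from 4.23e-04 to 0.0697.

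**Figure D4:**
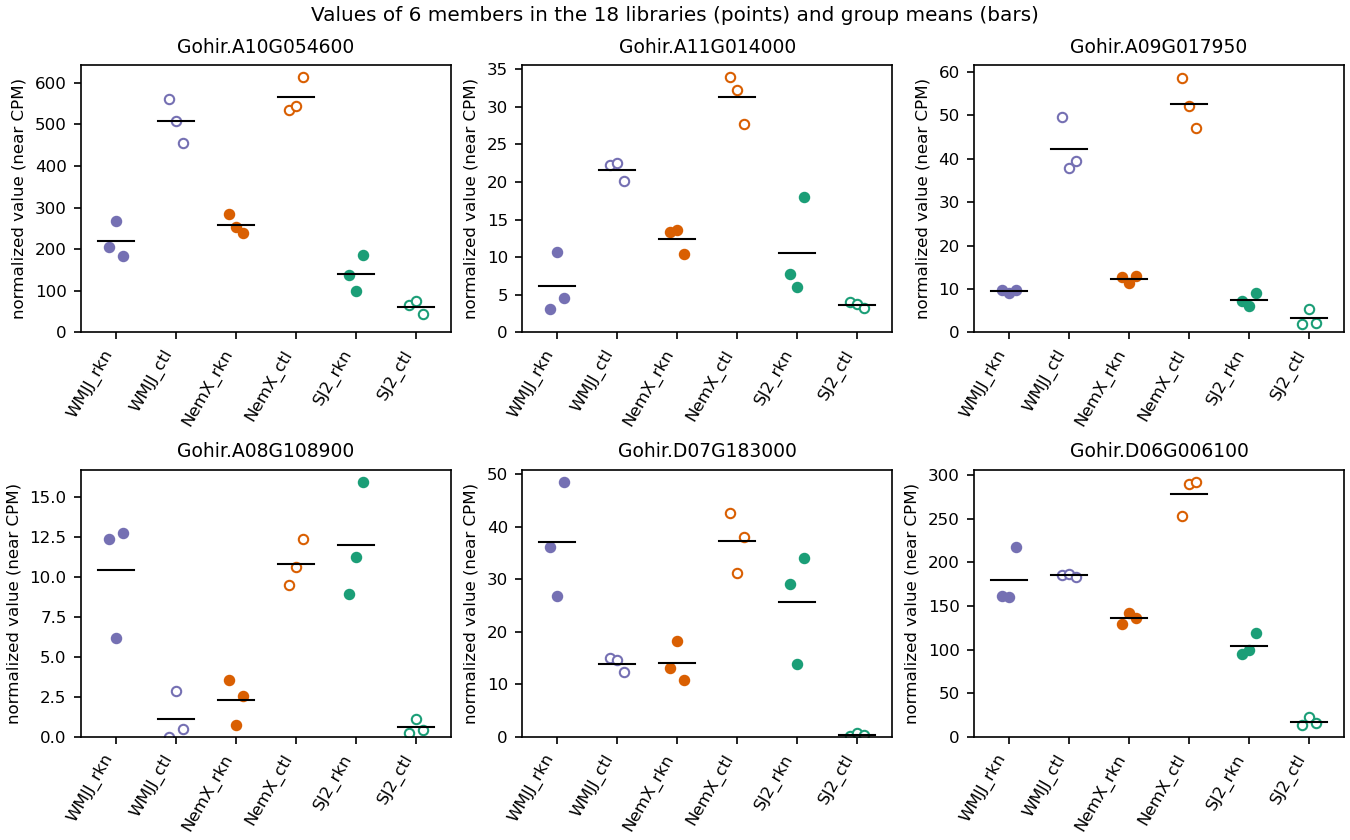
Normalized values (near CPM) of 6 members in all 18 libraries, with infested groups (filled) left of control groups (open) in WMJJ, NemX and SJ2, and bars at the group means. Gohir.A10G054600, Gohir.A11G014000 and Gohir.A09G017950 were lower in WMJJ_rkn, Gohir.A08G108900 and Gohir.D07G183000 were higher, and Gohir.D06G006100 was not called. In every panel the SJ2_ctl mean is the lowest of the 6 groups.

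The other 30 members were not called in WMJJ, 21 of them with a log2 fold change below 0 and 9 above 0. Gohir.D06G006100 moved little in WMJJ. It had 161, 160.4 and 218 in WMJJ_rkn, against 186, 186 and 183 in WMJJ_ctl (log2 fold change -0.06, SE 0.17, adjusted p = 0.855, limma). Across NemX it had 129.6, 142 and 136 in NemX_rkn, against 253, 289.5 and 293 in NemX_ctl. Across SJ2 it had 94.5, 100 and 119 in SJ2_rkn, against 13.5, 22.6 and 15.7 in SJ2_ctl. The WMJJ groups overlapped, while the SJ2 groups were far apart. Gohir.D09G129900 averaged 80.7 ± 2.3 in WMJJ_rkn and 102 ± 7.3 in WMJJ_ctl (log2 fold change -0.34, SE 0.15, adjusted p = 0.121, limma), with no overlap and no call. Gohir.A01G037000 averaged 62.3 ± 7.55 in WMJJ_rkn and 98.8 ± 12.4 in WMJJ_ctl (log2 fold change -0.66, SE 0.17, adjusted p = 0.00596, limma). It was among 5 members with an adjusted p below 0.01 and a fold change between -1 and 0.

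Some members among the largest opposite responses of SJ2 and NemX had means above those of the controls in WMJJ_rkn without a call. Gohir.D04G103200 had 16.4, 4.67 and 15.05 in WMJJ_rkn, against 6.31, 8.42 and 7.56 in WMJJ_ctl (log2 fold change 0.49, SE 0.37, adjusted p = 0.381, limma). Its levels in NemX were 0.323, 1.07 and 0.75 in NemX_rkn, against 5.62, 4.83 and 3.98 in NemX_ctl. Its levels in SJ2 were 1.41, 2.09 and 1.51 in SJ2_rkn, against 0, 0 and 0.129 in SJ2_ctl, with 2 control libraries at 0. Its mean of at least 2 rested on the WMJJ libraries. The WMJJ groups overlapped, since WMJJ_rkn replicate 2 was below every control library. Gohir.A02G017400 averaged 4.85 ± 4.01 in WMJJ_rkn and 2.47 ± 0.319 in WMJJ_ctl (log2 fold change 0.52, SE 0.47, adjusted p = 0.48, limma), and its sign turned without WMJJ_rkn replicate 2 (log2 fold change -0.07). Gohir.A12G122200 averaged 18.7 ± 4.47 in WMJJ_rkn and 7.27 ± 3.29 in WMJJ_ctl (log2 fold change 1.36, SE 0.41, adjusted p = 0.0208, limma). Gohir.D11G304400 averaged 2.56 ± 1.39 in WMJJ_rkn and 0.26 ± 0.21 in WMJJ_ctl (log2 fold change 1.93, SE 0.56, adjusted p = 0.0156, limma). Both had fold changes beyond 1 and missed the adjusted p, and in both every WMJJ_rkn library was above every WMJJ_ctl library. Gohir.D11G304400 was called with a replicate block (adjusted p = 0.00958), without WMJJ_rkn replicate 1 (adjusted p = 0.00888) and with a term for the libraries with the most reads (adjusted p = 0.00566), within a limma range from 0.00566 to 0.0705 over all settings. With that term Gohir.A12G122200 was called too (adjusted p = 0.00789, within a limma range up to 0.0869).

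On the other side, Gohir.D01G069400, Gohir.D08G159500, Gohir.D04G142600 and Gohir.A10G236600 had lower means in WMJJ_rkn without a call. Gohir.D01G069400 averaged 3.4 ± 2.41 in WMJJ_rkn and 8.01 ± 3.59 in WMJJ_ctl (log2 fold change -1.26, SE 0.46, adjusted p = 0.0506, limma), and was called only with the term for the libraries with the most reads (adjusted p = 0.00906 in the limma fit). Gohir.D08G159500 averaged 4.05 ± 2.01 in WMJJ_rkn and 10.5 ± 4.55 in WMJJ_ctl (log2 fold change -1.29, SE 0.42, adjusted p = 0.0324, limma). The libraries of the 2 treatments overlapped in Gohir.D01G069400 and not in Gohir.D08G159500. Gohir.D04G142600 averaged 10.5 ± 1.44 in WMJJ_rkn and 17.6 ± 6.79 in WMJJ_ctl (log2 fold change -0.64, SE 0.41, adjusted p = 0.286, limma). Gohir.A10G236600 averaged 37.7 ± 12.1 in WMJJ_rkn and 65.99 ± 5.16 in WMJJ_ctl (log2 fold change -0.85, SE 0.31, adjusted p = 0.0568, limma), with no overlap. Without the libraries with the most reads, Gohir.D08G159500 (adjusted p = 0.00949) and Gohir.A10G236600 (adjusted p = 0.00123) were called lower by limma. The 19 members without a call that are not named by the rule ran from -1.26 to 0.53 in log2 fold change. In 10 of the 30 the absolute log2 fold change was below 0.4, among them Gohir.D06G006100 and Gohir.D09G129900.

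The members also varied within groups. In SJ2_rkn, replicate 3 was the highest library in 41 of the 52 members (78.8%), against 38.5% of all genes with a mean of at least 2. Its median over the members was 11.8, beside 8.72 in replicate 1 and 7.63 in replicate 2. In no other group was 1 library highest in more than 24 members. Without SJ2_rkn replicate 3 the rule gave 43 genes, 41 of them members, and its part in the SJ2 rises beyond that count was not tested. It was also the SJ2_rkn library with the most reads. The column totals differed between groups, with the highest median in NemX_ctl and every SJ2_ctl library below the rest, in the same directions as the members. The totals of NemX_ctl and NemX_rkn overlapped. With every library scaled to the same total, 38 genes met the rule, all of them members.

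The libraries with the most reads, 1 in each group, deviated together from their group means over all genes, with r from 0.19 to 0.44 in the 15 pairs of them. Between 1 of them and a library of another group that was not, r ran from -0.30 to -0.07 in 60 pairs, and it ran from -0.01 to 0.24 in the 60 pairs of the others. According to the methods, 1 in 3 samples was prepared with another kit, and both a MiSeq and a HiSeq sequencer were used. Which libraries had which is not said, and whether either follows this set was not tested. In a limma fit with a term for this set, chosen after the data were seen, 19 members were called lower in WMJJ (5.35% of all tested genes) and 6 higher (6.03%), and 34 were lower in NemX (0.985%), the contrast that the rule used. Without the set, 17 were called lower in WMJJ (4.28% of all tested genes) and 2 higher (4.8%). In the 2 WMJJ libraries of the set alone, WMJJ_rkn was below WMJJ_ctl in 38 members (73.1%, against 50.4% of genes with a mean of at least 2). The rule gave 61 genes without the set, 35 of them members.

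**Figure D5:**
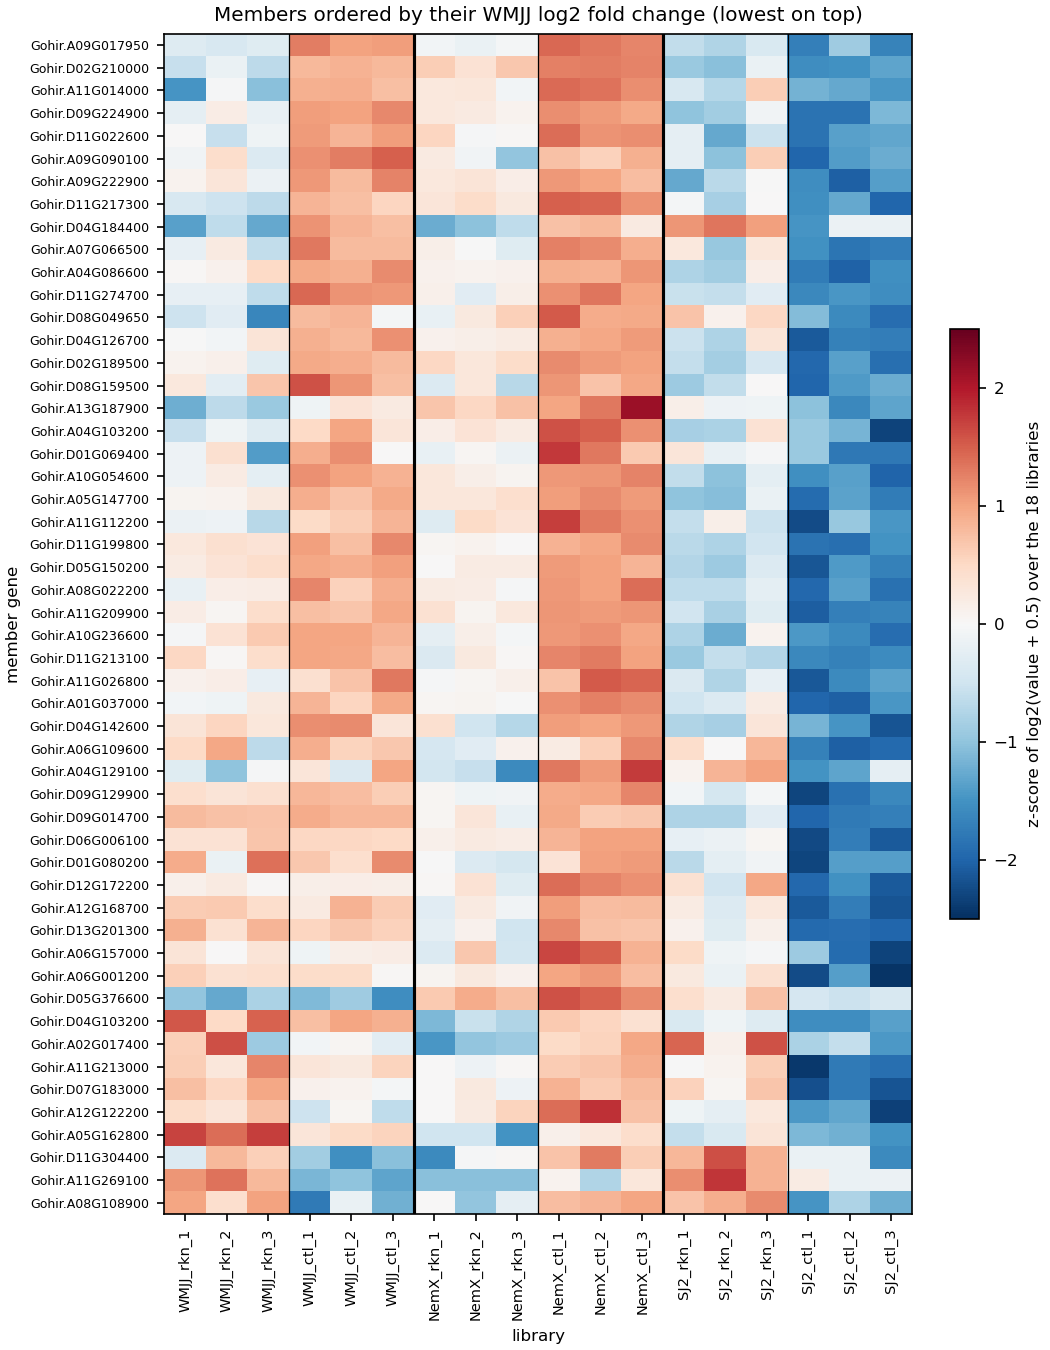
Z-scores of log2(value + 0.5) over the 18 libraries (columns, rkn left of ctl within WMJJ, NemX and SJ2) for the 52 members (rows, ordered by their WMJJ fold change). SJ2_ctl is blue in nearly all rows and NemX_ctl red in nearly all. WMJJ_ctl is red in the upper rows, where WMJJ_rkn is paler. It is blue in some of the lowest rows but not in all of them, and WMJJ_rkn is red there.

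Across the 52 members, the SJ2 and WMJJ responses had a Pearson r of 0.46 and the NemX and WMJJ responses one of -0.18. These are descriptions over genes, which are not independent, and the range of the SJ2 and NemX responses was cut by the rule. The members called higher in WMJJ had SJ2 log2 fold changes from 1.40 to 4.81 (median 2.56), and those called lower had values from 1.04 to 2.51 (median 1.54).

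By the identifiers, 27 members were on the A and 25 on the D subgenome, and 23 chromosomes held at least 1 member. A11 and D11 held 6 each, together 12 of the 52 (23.1%), against 10.4% of genes with a mean of at least 2. D04 held 4 (7.69%, against 2.87%) and A04 held 3 (5.77%, against 2.16%), so a raised share was not particular to A11 and D11. In WMJJ, 3 of the 6 members on D11 were called lower, and on A11 1 was called lower and 1 higher. Of all tested genes, 4.84% were called lower and 5.6% higher. Nematode resistance of NemX has been mapped to these chromosomes in genetic studies. No test was made of the shares by chromosome, which were looked at after the members were known. At the edge of the rule, the gene just outside it, Gohir.D08G049600, carries the identifier next to that of the member Gohir.D08G049650, and no annotation of the pair was at hand.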

How the data were processed

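Total RNA was isolated from roots, and cDNA libraries made from it with TruSeq RNA kits were sequenced. There were 18 libraries, 3 for each of 6 groups. The authors checked the reads with FastQC 0.11.9, trimmed them with Trimmomatic 0.39 and assigned them with kallisto 0.46.1 to TM-1 transcripts (UTx v2.1), which were summed per gene. They deposited 1 table of normalized signal values, near CPM, whose normalization is not given in the sources used here. The values are not whole reads, so no count model was fitted. Kallisto shares reads between near-identical copies, so values of A and D copies may be mixed.

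The log2 of value plus 0.5 was fitted with limma 3.58.1 (R 4.3.3) with 1 mean per group and an intensity trend. Genes with a mean of at least 1 were tested (46813) and 7695 were not. Adjustment for multiple tests was that of Benjamini and Hochberg, for every comparison by itself. The p-values rest on the spread between libraries within groups, taken as 1 estimate per gene over all 6 groups and moderated with the intensity trend. They do not measure the spread of the WMJJ libraries alone. The labels call the 3 libraries of a group biological replicates. They came from 5 plants per genotype and treatment by the labels and 6 by the methods, and how plants were divided among libraries is not stated. The fit was tested on simulated data first. Members, lists and tests were chosen with earlier results of these data known. The planned rule for named genes took the 12 members with the largest opposite responses, up to 6 called in each direction in WMJJ, the 3 with the highest means, and the 3 genes on each side nearest to the limits, with the 2 TIR-NBS-LRR genes. Of the identifiers, 0 matched the RefSeq table, so no sequences are shown. Alternatives were other pseudocounts, filters, scalings and thresholds, a replicate block, WMJJ alone, and each library left out. Chosen after the data were seen were a term for the library with the most reads in each group and a fit without these. Figures used Python 3.11.15 and matplotlib 3.10.9.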

Additional observations from a re-analysis of the deposited data

How the results depend on the processing

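The count of members called lower in WMJJ was 18, and between 11 and 17 without 1 WMJJ library, with 11 without WMJJ_rkn replicate 1. The count called higher was 4, and between 2 and 4 without 1 WMJJ library, with 2 without WMJJ_rkn replicate 3. Over the 46813 tested genes the counts moved too, from 2264 lower to between 1742 and 2235, with 1794 without WMJJ_rkn replicate 1. Those called higher moved from 2623 to between 2101 and 2539, with 2236 without WMJJ_rkn replicate 3. Of the 18 lower calls, 9 held in every setting of the fit and 10 without each WMJJ library, and of the 4 higher calls 1 and 2. With equal library totals 19 members were called lower, with median-of-ratios scaling 19, without the intensity trend 14 and with the 6 WMJJ libraries alone 14. Of the 46813 tested genes, 2349, 2316, 2182 and 1505 were called lower in these settings. The rule gave 85 genes when libraries were allowed to overlap, and between 43 and 76 without 1 library of SJ2 or NemX. With fewer libraries the condition of no overlap is easier to meet. Without 1 WMJJ library, the WMJJ log2 fold change of Gohir.A02G017400 (0.52) ran from -0.069 without WMJJ_rkn replicate 2 to 1.19, and that of Gohir.D06G006100 (-0.06) ran from -0.20 to 0.017 without WMJJ_rkn replicate 2, with 0.015 without replicate 1. Same-numbered libraries deviated together only in part (r from -0.22 to 0.44, above 0.1 in 20 of 45 pairs), so the numbers were not taken as pairs. With a replicate block, 18 members were called lower and 5 higher (2397 and 2728 of the 46813 tested genes). With a term for the library with the most reads in each group, chosen after the data were seen, 19 were called lower and 6 higher, and 34 rather than 19 were lower in NemX. Without these libraries, 17 were called lower and 2 higher, and the rule gave 61 genes. The replicate numbers do not follow this set in NemX_rkn. The table gives no read depth, and no counting intervals were computed. With a filter of 5 on the mean, 43 members were tested and 15 were called lower (1740 of the 30538 genes tested then).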
